A study of Mus musculus with 4 samples.

Results

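RNA methyltransferases, their partners and the enzymes that remove RNA methyl marks were followed in colonic epithelial cells labelled Mettl14 wild type or Mettl14 knockout. The genes were taken by symbol: the Mettl, Nsun, Trmt and Ftsj families, Trdmt1, the named subunits of the m6A writer complex, the AlkB-type genes Fto, Alkbh5, Alkbh1 and Alkbh8, and the modifiers Pcif1, Rnmt, Emg1 and Fbl. This gave 72 of the 50600 rows of the count table, of which 67 were protein-coding in GENCODE M21, 3 were pseudogenes and 2 carried the antisense biotype (Mettl5os and Trmt61b). Poly(A) RNA of colonic epithelial cells, labelled primary and of the C57BL/6 strain, had been sequenced in 2 libraries labelled Mettl14 wild type (WT) and 2 labelled Mettl14 knockout (KO). The labels name no Cre driver, deleted exon, treatment, age or sex, leave a code shared by all titles unexplained, and do not say whether a library pooled animals. Library totals ran from 22136440 to 24991060 counts.

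Methyl groups are among the most common chemical additions to RNA. In mRNA, a heterodimer of Mettl3, the catalytic subunit, and Mettl14, which holds the RNA, places N6-methyladenosine (m6A), guided by Wtap, Virma, Zc3h13, Cbll1 and an Rbm15 protein. Fto and Alkbh5 can remove the mark. Most other enzymes of these families methylate tRNA, rRNA, snRNA or the mRNA cap, and several Mettl proteins methylate proteins, so the symbol rule is wider than RNA.

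The promoters of 4 genes are shown because the largest differences among the writer subunits other than the deleted gene (Mettl3 and Rbm15) and the most negative and most positive log2 fold changes of the whole set (Trdmt1 and Trmt5) fell on them. Each runs from 250 bases before to 50 bases after the RefSeq start (GRCm38.p6), 5′ to 3′ on the gene's strand. Capitals mark matches, on either strand, to CCGGAAG (an ETS core), GCATGCGC (an NRF1 core), CACGTG (an E-box), CCAAT, AAGATGGC (a YY1 core) or TATAAA. These motifs do not overlap one another in the promoters shown.
Mettl3 promoter, chr14:52305075-52305374, strand minus: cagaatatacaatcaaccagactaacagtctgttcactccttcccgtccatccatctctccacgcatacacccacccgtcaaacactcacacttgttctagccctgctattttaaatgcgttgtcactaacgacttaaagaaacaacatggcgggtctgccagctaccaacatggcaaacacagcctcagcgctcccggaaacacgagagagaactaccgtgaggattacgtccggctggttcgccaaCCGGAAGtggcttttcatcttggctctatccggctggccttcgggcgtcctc
Rbm15 promoter, chr3:107333240-107333539, strand minus: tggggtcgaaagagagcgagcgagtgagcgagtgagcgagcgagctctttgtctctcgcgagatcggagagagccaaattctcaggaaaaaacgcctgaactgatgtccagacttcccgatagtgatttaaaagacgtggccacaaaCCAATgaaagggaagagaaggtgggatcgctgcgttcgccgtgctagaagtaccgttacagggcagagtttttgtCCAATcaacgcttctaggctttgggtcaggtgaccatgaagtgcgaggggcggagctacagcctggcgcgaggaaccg
Trdmt1 promoter, chr2:13544615-13544914, strand minus: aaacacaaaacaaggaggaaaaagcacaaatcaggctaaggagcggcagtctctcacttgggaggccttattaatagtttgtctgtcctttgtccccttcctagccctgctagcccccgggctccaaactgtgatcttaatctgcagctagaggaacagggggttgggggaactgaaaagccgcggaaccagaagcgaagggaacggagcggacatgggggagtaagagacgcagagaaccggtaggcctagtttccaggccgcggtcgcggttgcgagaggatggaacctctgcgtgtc
Trmt5 promoter, chr12:73286662-73286961, strand minus: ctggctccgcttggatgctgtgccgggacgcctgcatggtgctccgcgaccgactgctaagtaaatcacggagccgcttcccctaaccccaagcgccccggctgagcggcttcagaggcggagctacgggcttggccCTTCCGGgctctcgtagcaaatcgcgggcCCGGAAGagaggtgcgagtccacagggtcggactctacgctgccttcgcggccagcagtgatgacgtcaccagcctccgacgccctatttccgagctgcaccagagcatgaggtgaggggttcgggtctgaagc
The Mettl3 window held 1 ETS core, which began 2 bases before the start and ran across it. The Rbm15 window held 2 CCAAT boxes, 103 and 28 bases before the start, and the Trmt5 window 2 ETS cores, 113 and 84 bases before it. None of these letters were found in the Trdmt1 window. RefSeq promoters matched 53 of the 72 genes and 50 of the 61 tested below. Among those 50, 36% held the ETS core, against 17.3% of 11077 promoters of all genes tested and 9.12% of all 27025 promoters. The TATA letters were in 0 of the 50 (7.87% of promoters of genes tested), the YY1 core in 6 (4.48%), the NRF1 core in 5 (5.08%), CCAAT in 15 (38.3%) and the E-box in 4 (9.83%). The median promoter had 23 CG dinucleotides, against 20 over promoters of genes tested, and the 4 printed ones had 17 (Mettl3), 23 (Rbm15), 15 (Trdmt1) and 28 (Trmt5).

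Before the comparison, the libraries themselves were checked. Xist and Y-linked transcripts showed 1 male and 1 female library in each genotype. Epithelial markers were abundant in all 4, with a summed level of 11932 and 13430 CPM (counts scaled to library size after TMM factors) in WT replicates 1 and 2 and 10082 and 9410 CPM in KO. None of those 12 genes was called by edgeR, but 9 had a negative log2 fold change, with a median of -0.435. At an unadjusted p under 0.05, 1 was higher (8.33%, against 14.8% of all genes) and 4 lower (33.3% against 15.7%). Both KO libraries lay below both WT libraries for 7 (58.3%, against 32.2% of all genes) and above them for 1 (8.33% against 31.1%). The 9 macrophage markers summed to 68.6 and 95.7 CPM in WT and to 175 and 161 CPM in KO, and 3 rose (Itgam, C1qa and Cx3cr1; 33.3%, against 1.72% of all genes). At an unadjusted p under 0.05, 7 of the 9 were higher and 0 lower, with a median log2 fold change of 1.13. KO replicate 2 stood apart, with 565 CPM of 6 fibroblast markers against 52.6 to 75.9 in the other libraries and 6681 CPM of 5 erythroid markers against 1353 to 2736. The part of these cells in the results was not tested, and in bulk RNA fewer cells of a type cannot be told apart from less RNA per cell. For scale, the 72 genes together made up 1035, 945, 955 and 1004 CPM in WT replicates 1 and 2 and KO replicates 1 and 2.

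Of the 72 genes, 61 passed the filter on low counts and entered edgeR's quasi-likelihood test, among 14861 genes tested in all. At an adjusted p under 0.05, which 3.61% of all genes reached (1.72% higher in KO and 1.9% lower), 1 member fell (Trdmt1) and 0 rose, or 1.64% of those tested. At an unadjusted p under 0.05, 13 were higher (21.3%, against 14.8% of all genes) and 8 lower (13.1% against 15.7%). DESeq2 called 2 higher and 6 lower (13.1%, against 13% of all genes), and limma-voom called 0 (3.92% of all genes). The log2 fold change was positive for 42 of the 61, with a median of 0.14, while 49% of all genes were positive with a median of -0.01. Both KO libraries lay above both WT libraries for 29 members (47.5%, against 31.1% of all genes) and below them for 15 (24.6% against 32.2%). In the other 17 the genotypes overlapped. The smallest adjusted p over all genes was 0.0434, and 529 genes lay between 0.05 and 0.06, so a member just above the threshold was close to many called genes. An adjusted p under 0.1 was reached by 6 higher members (9.84%, against 8.55%) and 7 lower (11.5% against 9.49%).

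**Figure D1:**
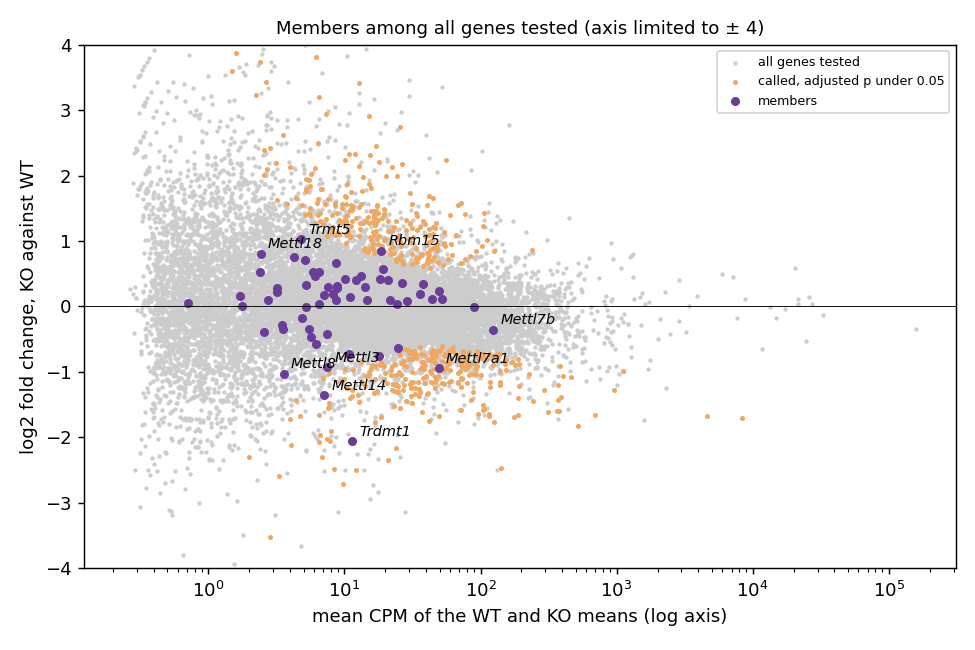
Log2 fold change of KO against WT (vertical axis) against the mean CPM of both genotypes (horizontal log axis), with each grey point a gene tested, orange points the called genes and purple points the 61 members. Among the members, Trdmt1 lies lowest at -2.06 and Trmt5 highest at 1.03, and the vertical axis is limited to 4 on either side of 0.

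The deleted gene was read first. Mettl14 (ENSMUSG00000028114, chromosome 3, 123368297 to 123386108, GRCm38) was at 11.7 and 8.67 CPM in WT and 3.99 and 3.94 CPM in KO. The KO libraries agreed closely and lay below both WT libraries, at 0.39 of the WT level (log2 fold change -1.36, SE 0.22, edgeR adjusted p = 0.0504). The sources used here do not say which exons were deleted, and which of the remaining counts come from outside the deleted part was not tested. Mettl3 (ENSMUSG00000022160, chromosome 14, 52294841 to 52305128), the catalytic partner on another chromosome, was at 11.1 and 8.42 CPM in WT and 5.5 and 4.75 CPM in KO. Its groups did not overlap either (-0.93, SE 0.22, edgeR adjusted p = 0.0751). Of its annotated exon bases 18.4% are shared with Tox4 on the opposite strand, a gene whose log2 fold change was 0.03, and the strandedness of the counting is not given in the sources used here. Read as a ratio within each library, Mettl14 had 1.05 and 1.03 counts per Mettl3 count in WT, against 0.726 and 0.828 in KO.

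The remaining 6 writer subunits had log2 fold changes above 0, none of them called. Rbm15 (ENSMUSG00000048109, chromosome 3, 107325421 to 107333673), an adaptor that brings the complex to RNA such as Xist, was at 11.9 and 14.8 CPM in WT and 23.6 and 24.5 CPM in KO. Both KO libraries were above both WT libraries, at 1.80 times the WT mean (0.85, SE 0.15, edgeR adjusted p = 0.0546). Its close relative Rbm15b overlapped between genotypes, at 26.1 and 30.4 CPM in WT and 28.6 and 31.1 CPM in KO (0.08). The count ratio of Rbm15 to Rbm15b was accordingly 0.455 and 0.487 in WT, against 0.828 and 0.786 in KO. Wtap, the scaffold that places the dimer in nuclear speckles, was at 50.7 and 48.7 CPM in WT and 52.5 and 54.9 CPM in KO (0.11). Virma, listed as 1110037F02Rik, was at 31.7 and 35.2 CPM and then 39.8 and 45.3 CPM (0.35, edgeR adjusted p = 0.14). Cbll1, also called Hakai, was at 8.33 and 8.75 CPM and then 12.2 and 10.7 CPM (0.42, edgeR adjusted p = 0.151). Groups of these 3 did not overlap, with KO above WT as in 31.1% of all genes, and the differences were small beside that of Rbm15. Zc3h13, the zinc finger adaptor, was level at 23.6 and 24.5 CPM in WT and 23.9 and 25.3 CPM in KO (0.03). Set against the scaffold within each library, both members of the dimer were lower in KO. Mettl14 had 0.23 and 0.178 counts per Wtap count in WT, against 0.0761 and 0.0717 in KO. For Mettl3 those ratios were 0.218 and 0.173 in WT, against 0.105 and 0.0866 in KO.

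The m6A and m6Am enzymes outside the complex showed no call. Mettl16, which methylates U6 snRNA and the Mat2a mRNA, was at 8.58 and 7.07 CPM in WT and 9.49 and 9.94 CPM in KO (0.31). Mettl4, an snRNA methyltransferase, was at 3.04 and 2.69 CPM and then 3.33 and 3.62 CPM (0.28). Pcif1, which makes m6Am beside the cap, was at 34.3 and 33.2 CPM and then 37.9 and 38.8 CPM (0.18). All 3 lay slightly higher in both KO libraries, where 31.1% of all genes lay above WT. Mettl5, the m6A enzyme of the small ribosomal subunit, lay slightly lower, at 4.14 and 3.45 CPM in WT and 3.06 and 3.16 CPM in KO (-0.29). Zcchc4, the corresponding enzyme of the large subunit and not among the 72, overlapped at 7.42 and 7.45 CPM and then 7.49 and 6.78 CPM (-0.06). The edgeR adjusted p ranged from 0.254 to 0.834 over these 5 genes. Rnmt, which methylates the cap guanosine, was at 0.14 with overlapping groups.

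Of the demethylases, Alkbh5 overlapped completely, at 82.6 and 97.6 CPM in WT and 91 and 87.4 CPM in KO (-0.01, edgeR adjusted p = 0.95). Fto was at 16.6 and 14.7 CPM in WT and 20.6 and 21 CPM in KO, with both KO libraries above WT (0.41, SE 0.13, edgeR adjusted p = 0.115). On the scale of counts per length (TPM, from the union of annotated exons), Alkbh5 stood at a mean of 23.8 and Fto at 2.23 over the 4 libraries, so Alkbh5 was the more abundant of the pair. The tRNA enzymes of the same AlkB family followed Fto in sign. Alkbh8, which modifies the wobble uridine of tRNA, was at 6.6 and 6.82 CPM in WT and 11.3 and 9.94 CPM in KO (0.66, SE 0.16, edgeR adjusted p = 0.0794). Alkbh1, a tRNA demethylase, was at 0.30 (edgeR adjusted p = 0.356).

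**Figure D2:**
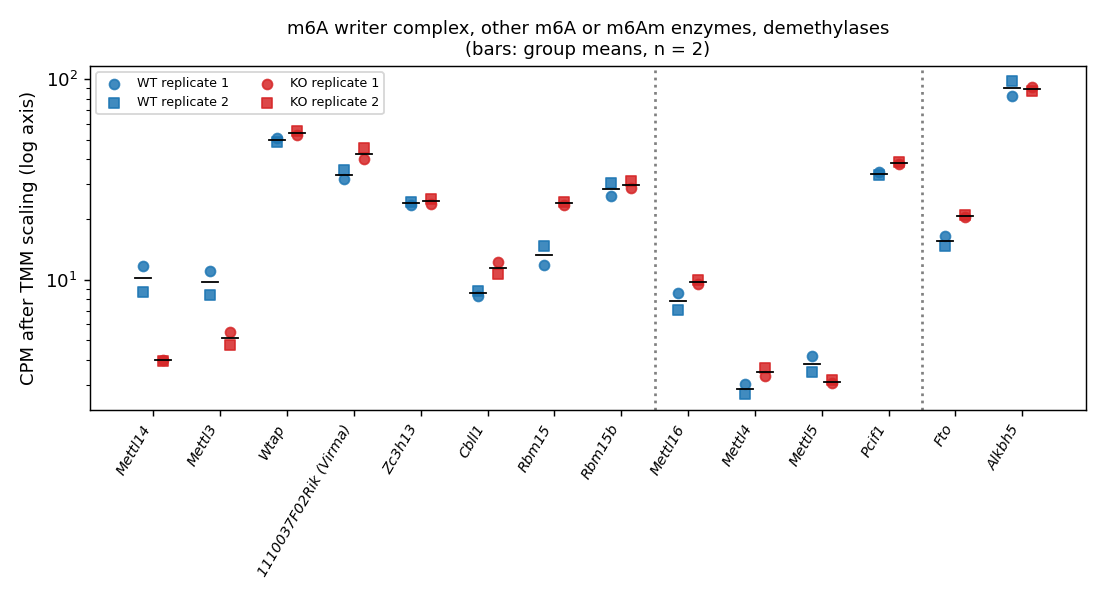
CPM after TMM scaling (vertical log axis) of the writer complex (left), other m6A or m6Am enzymes and Mettl5 (middle) and demethylases (right), with WT libraries in blue, KO libraries in red and black bars at the means of 2 libraries. Mettl14 and Mettl3 sit lower in both KO libraries, Rbm15 higher, and Wtap, Zc3h13, Rbm15b and Alkbh5 near their WT levels.

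Among the 25 tRNA enzymes, all of which were tested, 1 fell (Trdmt1) and 0 rose by edgeR (4%, against 3.61% of all genes). At an unadjusted p under 0.05, 3 were higher (12%, against 14.8% of all genes) and 4 lower (16% against 15.7%). Trdmt1 (ENSMUSG00000026723, chromosome 2, 13509014 to 13544668), also known as Dnmt2, methylates a cytosine in the anticodon loop of tRNA-Asp. It was at 13.9 and 22.6 CPM in WT and 3.72 and 5.03 CPM in KO, or 18.2 ± 6.1 against 4.38 ± 0.921 CPM (SD, n = 2), 0.24 of the WT level. The WT libraries differed from each other by more than the KO libraries did, and the groups did not overlap (log2 fold change -2.06, SE 0.31, edgeR adjusted p = 0.0472). The call ended without KO replicate 1 (-1.87) and without KO replicate 2 (-2.28), where edgeR called 0 of all genes (2257 and 1987 at an unadjusted p under 0.05). It also ended with RLE factors and limma-voom. The adjusted p ran from 4.15e-06 (DESeq2) to 0.378 over the 13 alternatives, 9 of which called the gene lower.

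The next largest negative values in this family were in Mettl8, Trmt1l and Trmt2b. Mettl8, which makes 3-methylcytidine in mitochondrial tRNA, was at 5.25 and 4.38 CPM in WT and 2.57 and 2.14 CPM in KO (-1.03, SE 0.26, edgeR adjusted p = 0.0836). It shares 2.3% of its exon bases with Dcaf17 (log2 fold change -1.49), and the part of shared reads was not tested. Trmt1l, a paralog of the dimethylguanosine enzyme Trmt1, was at 25.3 and 19.6 CPM in WT and 14.5 and 12 CPM in KO (-0.76, SE 0.19, edgeR adjusted p = 0.0809). Trmt1 itself had the opposite sign (0.30). Trmt2b, the mitochondrial 5-methyluridine enzyme, is X-linked and was at 30.7 and 29.7 CPM in WT and 18.1 and 20.7 CPM in KO. Its replicates were close and its groups did not overlap (-0.64, SE 0.12, edgeR adjusted p = 0.0572, and 0.0440 with sex as a covariate, within a range of 0.0251 to 0.378 over the alternatives). Its cytosolic counterpart Trmt2a overlapped between genotypes (0.10). The other negative values were Trmt11 (-0.57), Trmt61b (-0.39), Trmt10b (-0.34), Ftsj1 (-0.34) and Trmt12 (-0.18), none with an unadjusted p under 0.05.

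At the other end stood Trmt5 (ENSMUSG00000034442, chromosome 12, 73280011 to 73286710), which methylates the guanosine next to the anticodon. It was at 3.28 and 3.07 CPM in WT and 5.99 and 6.98 CPM in KO, 2.04 times the WT level on the fitted scale (1.03, SE 0.21, edgeR adjusted p = 0.0635). Its groups were well apart, and DESeq2 called it higher (adjusted p = 0.0311, within 0.0311 to 0.386 over the alternatives). Trmt61a and Trmt6, the catalytic and RNA-binding subunits of the 1-methyladenosine enzyme of tRNA, were higher in both KO libraries without a call. Trmt61a was at 3.52 and 2.82 CPM in WT and 6.16 and 4.56 CPM in KO (0.76, edgeR adjusted p = 0.15), and Trmt6 at 0.47 (edgeR adjusted p = 0.0903). Mettl2, a 3-methylcytidine enzyme, was at 6.31 and 3.37 CPM and then 6.43 and 7.48 CPM (0.53), and WT replicate 2 set its value, which was 0.17 without that library. Smaller positive values were those of Trmt10a (0.52), Trmt44 (0.46), Trmt10c (0.41), Mettl1 (0.33), Nsun3 (0.28), Nsun2 (0.23), Trmt13 (0.22), Mettl6 (0.19) and Nsun6 (0.18). Nsun2, the main tRNA 5-methylcytosine enzyme and the most abundant of them per length (13.8 TPM), was at 49.5 and 42 CPM in WT and 53.3 and 54.3 CPM in KO. Trmt112, an activating subunit shared by several methyltransferases, was at 9.88 and 6.9 CPM and then 8.78 and 9.24 CPM (0.10). A share of 33.2% of its exon bases overlaps the opposite-strand gene Prdx5, which was at 144 to 295 CPM, so its counts are uncertain.

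**Figure D3:**
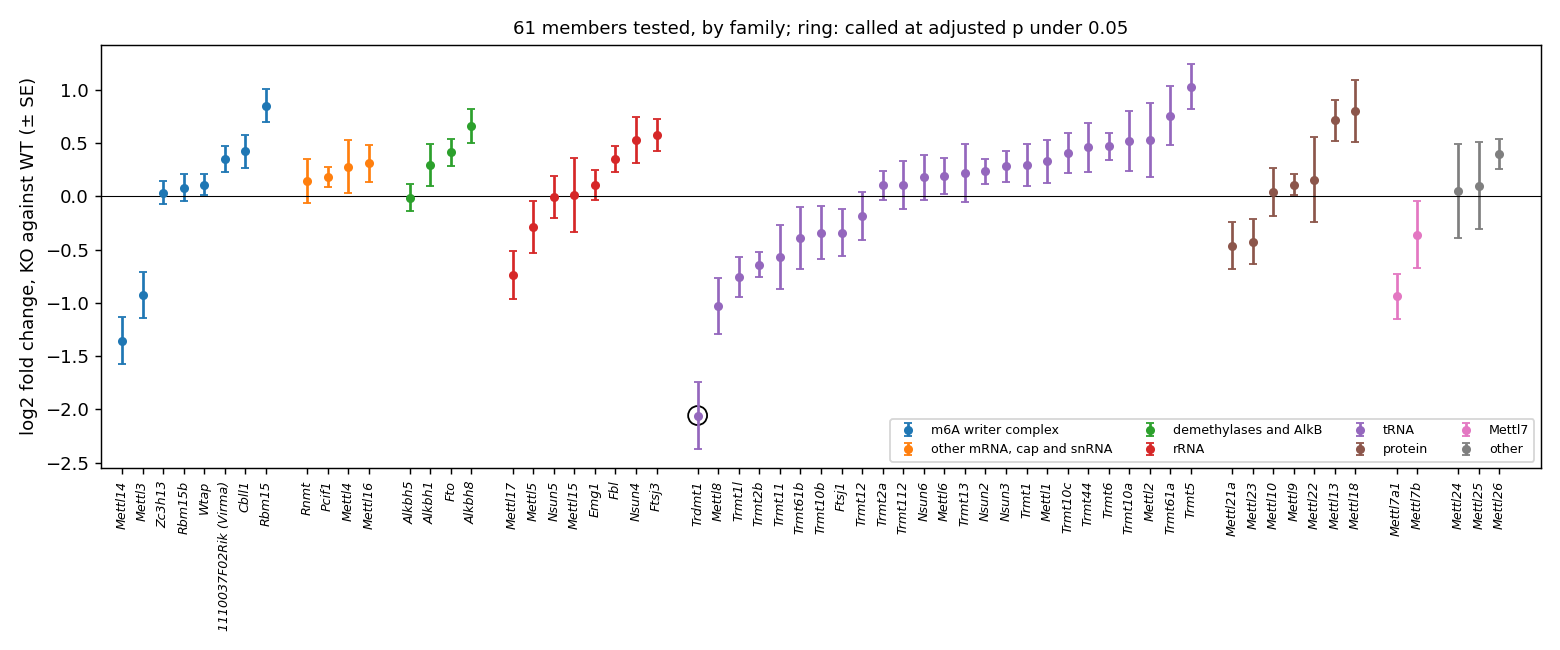
Log2 fold change of KO against WT with its standard error (vertical axis) for the 61 members tested, ordered within families (colours). A ring marks Trdmt1, the called member, while most members lie within 0.5 of 0.

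The 8 rRNA and ribosome genes gave no call by edgeR. At an unadjusted p under 0.05, 2 were higher (25%, against 14.8% of all genes) and 1 lower (12.5% against 15.7%). Ftsj3, a methyltransferase of rRNA processing, was at 16.9 and 13.7 CPM in WT and 23.6 and 22.1 CPM in KO (0.58, SE 0.15, edgeR adjusted p = 0.0887). Fbl, fibrillarin, the catalytic subunit of the snoRNPs that methylate rRNA riboses, was at 24.8 and 21.8 CPM and then 30.7 and 28.8 CPM (0.35, edgeR adjusted p = 0.136). Both were higher in both KO libraries, as were 31.1% of all genes. In the same libraries 10 proliferation genes summed to 389 and 385 CPM, against 283 and 259 in WT. Of the 10, 9 had a positive log2 fold change and Pcna a negative one (-0.72). Mki67 alone was at 48.5 and 65.9 CPM in WT and 158 and 151 CPM in KO. Whether proliferation had a part in the values of Ftsj3 and Fbl was not tested. Emg1 (0.11), Nsun5 (-0.01) and Mettl15 (0.01) overlapped between genotypes. Mettl15 is among the mitochondrial genes of this family, as are Nsun4 and Mettl17. Nsun4, an rRNA cytosine methyltransferase, was at 0.53. Mettl17, needed for assembly of the mitochondrial small subunit, was at 14.5 and 12.3 CPM in WT and 6.65 and 9.43 CPM in KO (-0.73, SE 0.23, edgeR adjusted p = 0.116). Of its exon bases 3.8% are shared with the same-strand gene Slc39a2, whose log2 fold change was -2.26, and the part of shared reads was not tested.

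Members that methylate proteins rather than RNA were not called by edgeR either. At an unadjusted p under 0.05, 2 of 7 tested were higher (28.6%, against 14.8% of all genes) and 0 lower (15.7% of all genes). Mettl18, a histidine methyltransferase of a ribosomal protein, was at 1.93 and 1.6 CPM in WT and 3.19 and 2.96 CPM in KO (0.80, SE 0.29, edgeR adjusted p = 0.151). Mettl13, which methylates the elongation factor eEF1A, was at 3.95 and 3.79 CPM and then 6.43 and 6.27 CPM (0.71, SE 0.19, edgeR adjusted p = 0.0925). Both had close replicates and groups that did not overlap, with KO above WT as in 31.1% of all genes. Mettl21a (-0.46) and Mettl23 (-0.42) were lower in both KO libraries, and Mettl9 (0.11), Mettl10 (0.04) and Mettl22 (0.16) differed little. Mettl23 shares 17.1% of its exon bases with the opposite-strand gene Srsf2, which was at 120 to 132 CPM. Another 9.5% is shared with the same-strand gene Mfsd11 (log2 fold change -0.57), so the counts of Mettl23 are uncertain.

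The most abundant members per length were the Mettl7 genes, Alkbh5, Mettl26 and Mettl9. Mettl7b, a thiol methyltransferase of the endoplasmic reticulum, had the highest mean at 159 TPM, followed by Mettl7a1 (29.9), Alkbh5 (23.8), Mettl26 (18.9) and Mettl9 (16.1). Mettl7b ranged widely within WT, at 176 and 103 CPM, against 91.4 and 126 CPM in KO, so the groups overlapped (-0.36, edgeR adjusted p = 0.479). Mettl7a1 was at 54.8 and 74.5 CPM in WT and 29.4 and 38 CPM in KO (-0.94, SE 0.21, edgeR adjusted p = 0.0715). The related Mettl7a2 and Mettl7a3 had at most 12 counts in any library, and how reads were divided among these copies is not given in the sources used here. Mettl26 was at 19.9 and 16.3 CPM in WT and 23.8 and 23.9 CPM in KO (0.40, edgeR adjusted p = 0.149). Mettl9, a protein histidine methyltransferase, was at 41.4 and 43.5 CPM and then 44.4 and 47.3 CPM. Mettl25 (0.10) and Mettl24 (0.05) completed the tested members. The sign for Mettl25 rested on WT replicate 2, since its log2 fold change was -0.28 without that library and 0.67 without WT replicate 1.

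**Figure D4:**
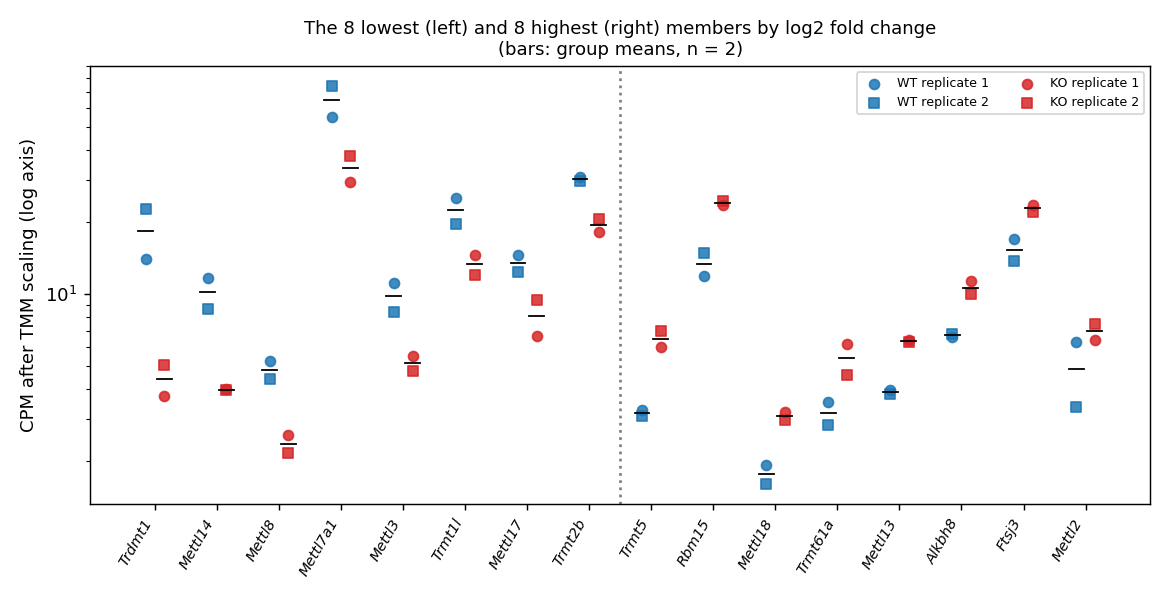
CPM after TMM scaling (vertical log axis) of the 8 members with the most negative and the 8 with the most positive log2 fold changes, with WT libraries in blue, KO libraries in red and bars at the means of 2 libraries. The 16 were picked by these same log2 fold changes, which favours groups that lie apart, as they do for all 16. Over all genes tested, both KO libraries lie above WT for 31.1% and below for 32.2%. The groups are apart most widely for Trdmt1 and least for Mettl2, where WT replicate 1 (6.31 CPM) is close to KO replicate 1 (6.43 CPM).

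The 11 members under the filter were rare in every library. Mettl11b, Mettl21e, Mettl5os, Trmt112-ps2 and Mettl4-ps1 had 0 counts in all 4, which allows up to 0.117 to 0.145 CPM per library (3 counts, counting error only). Nsun7 had 1 count in all, Mettl21c 0 to 3 and Mettl21b 1 to 4 per library, and Trmt112-ps1 had 3 in each KO library and 0 in each WT library. No fold is given for these.

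The longest protein-coding transcripts of 60 tested members had a median of 3065 bases and 1.13 GGACT (a common m6A consensus) per kilobase, against 3107 bases and 1.05 over 13532 genes tested. Across the members the density had a Spearman correlation of -0.104 with the log2 fold change, and the length one of 0.21. Over all genes tested these were 0.042 and 0. The points share their 4 libraries and are not independent replicates. The density was 1.98 for Mettl3, 0.695 for Mettl14, 0.792 for Trdmt1, 0.46 for Rbm15 and 0.484 for Trmt5, so 4 of these 5 lay below the members' median and 1 above.

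Partners and RNA methylation enzymes outside the symbol rule numbered 32, of which 31 were tested, 2 rose and 0 fell (6.45%, against 3.61% of all genes), with 11 higher (35.5%, against 14.8%) and 2 lower (6.45% against 15.7%) at an unadjusted p under 0.05. Their median log2 fold change was 0.18. Lcmt2, which completes the tRNA base wybutosine, was at 6.26 and 5.72 CPM in WT and 17.7 and 16.5 CPM in KO and rose by 1.51 on the log2 scale (SE 0.14, edgeR adjusted p = 0.0434). Cmtr2, which methylates the second transcribed nucleotide of mRNA, was at 3.85 and 4.46 CPM and then 10.3 and 10.7 CPM and rose by 1.33 (SE 0.18, edgeR adjusted p = 0.0443). Both had replicates close together. Among partner proteins, Wdr4 (partner of Mettl1) was at 0.11, Hsd17b10 (of Trmt10c) at -0.09, Thumpd3 (of Trmt112) at 0.11 and Ramac (of Rnmt, listed as Fam103a1) at -0.44. Wdr6, which works with Ftsj1, stood higher, at 16 and 12.2 CPM in WT and 25.5 and 29.4 CPM in KO (0.96, edgeR adjusted p = 0.0573), while Ftsj1 itself was at -0.34. Of 13 m6A readers, 2 rose (15.4%, against 1.72% of all genes), Ythdf1 by 0.86 and Ythdf2 by 1.22, and 0 fell by edgeR. Of the 13, 3 were higher (23.1%, against 14.8% of all genes) and 2 lower (15.4% against 15.7%) at an unadjusted p under 0.05.

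The same calls were then read across the alternatives. Besides Trdmt1, 8 members gained a call in at least 1 of 13 alternatives: Mettl14 in 7, Rbm15 in 6, Trmt2b in 4, Mettl3, Trmt1l and Mettl7a1 in 3 each, and Trmt5 and Ftsj3 in 2 each. Their log2 fold changes kept their sign in all 13. These 8 were picked by calls in the same alternatives, and no member above 0.36 in size changed sign, so the kept signs add no support. How many of all genes gained a call in at least 1 alternative was not counted, so the 8 members have no background share beside them. The share of all genes called moved with the setting as well. DESeq2 called 13.1% of members and 13% of all genes, and the fit without a filter 13.4% and 6.71%. Library size scaling called 4.92% and 5.32%, and the filter of CPM 1 in 2 libraries 3.33% and 5.68%. Mettl14 ran from -1.52 to -1.14, Mettl3 from -1.08 to -0.73 and Rbm15 from 0.69 to 1.05, and Trmt5 was at 0.94 or more in all of them. Without KO replicate 2, the library rich in fibroblast and erythroid transcripts, the values were -1.32 for Mettl14, -0.80 for Mettl3, -2.28 for Trdmt1, 0.84 for Rbm15 and 0.94 for Trmt5. With sex as a covariate, 1 member was higher (Rbm15) and 3 lower (Mettl14, Trdmt1 and Trmt2b), 6.56% of those tested against 9.48% of all genes.

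**Figure D5:**
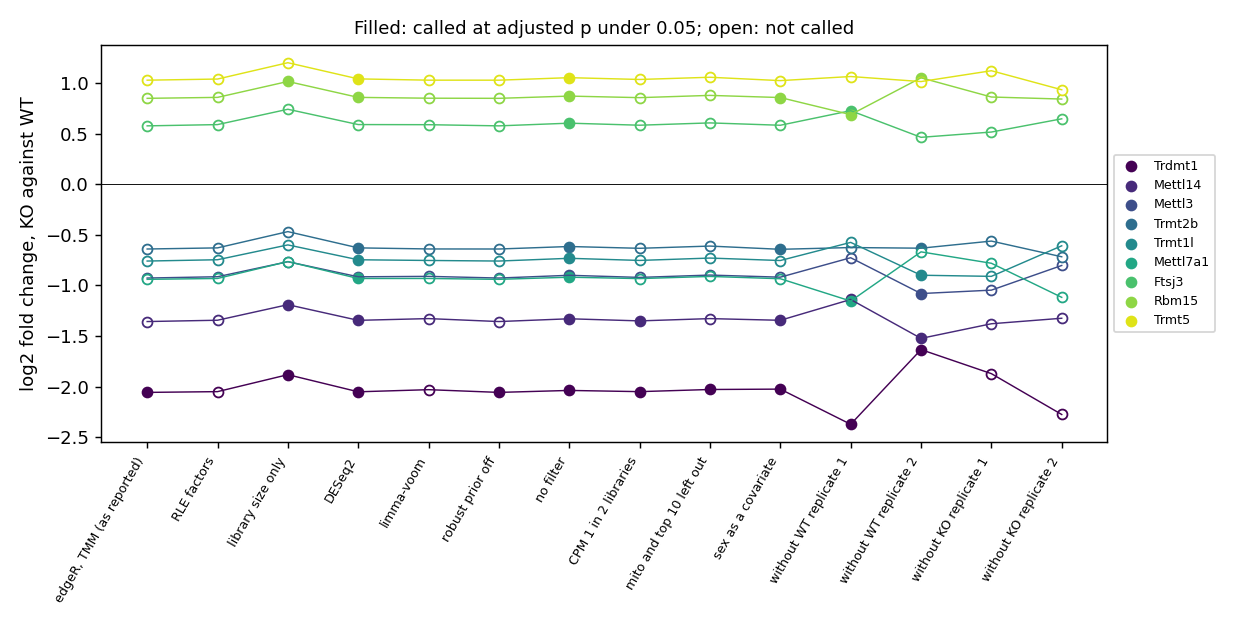
Log2 fold change of KO against WT (vertical axis) for the 9 members called at least once, under the reported fit and 13 alternatives (horizontal axis), with filled points called at an adjusted p under 0.05 and open points not called. All 9 lines stay on their side of 0, which the choice of called members favours.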

How the data were processed

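The authors deposited 1 table of whole-number counts per gene, 1 column per library, not normalised (library totals differ). Tools and build in the submitters' processing notes are RSEM 1.2.29, STAR 2.4.2a, FastQC 0.11.2 and mm10, with no step attached. The annotation, the strandedness and any rounding were not given in the sources used here.

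Groups came from the genotype label. Genes kept by filterByExpr (14861) were scaled by TMM and tested with edgeR 4.0.16 (R 4.3.3, quasi-likelihood F test, legacy and robust options, two-sided, Benjamini-Hochberg over all genes, 2 residual degrees of freedom). SE is the absolute log2 fold change over the square root of F. The code was tested on simulated data. Alternatives used limma 3.58.1 and DESeq2 1.42.0, among others. Each title carries its own number, whose meaning the labels do not give. With separate animals not stated, the p-values cover only how these 4 samples vary, which may be technical in part. Identifiers matched GENCODE M21 (99.56%); 0 columns lacked a sample.

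Members and lists were chosen with earlier results of these data known. Every member may be named. Values per library are given for writers, other m6A enzymes, demethylases, called members, the 8 lowest and 8 highest log2 fold changes and the 5 highest levels per length. The T cell, B and plasma cell, neutrophil, endothelium and smooth muscle marker lists gave 0 calls by edgeR (1, 1, 0, 0 and 2 higher at an unadjusted p under 0.05). So did the fibroblast and erythroid lists (1 and 0 higher). In the same order, these were 16.7%, 20%, 0%, 0%, 50%, 16.7% and 0% of the genes tested in each list, against 14.8% of all genes. Of 10 proliferation genes 4 rose (40%, against 1.72% of all genes), with 8 higher and 1 lower at an unadjusted p under 0.05 (14.8% and 15.7% of all genes).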

Additional observations from a re-analysis of the deposited data

How the results depend on the processing

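No paired analysis was possible because the replicate numbers were given in accession order and pair no libraries, which leaves matching by sex. Each genotype had 1 male and 1 female library, so the fit with sex as a covariate compares WT with KO within each sex. With fewer residual degrees of freedom than the 2 of the reported fit, that fit also assumes the same sex difference in both genotypes. In it Mettl14 (edgeR adjusted p = 0.0328, range over the alternatives 0.00121 to 0.378) and Rbm15 (0.0389, range 0.00722 to 0.381) were called besides Trdmt1 and Trmt2b. The count of all genes called, 537, became 1927 with DESeq2, 1632 without a filter (which adds genes to the test), 1409 with sex as a covariate and 0 to 2290 when 1 library was left out. Members called higher, 0 as reported, became 1 with library size scaling, 2 with DESeq2, 3 without a filter, 1 with sex as a covariate and 0 to 2 when 1 library was left out. Members called lower, 1 as reported, became 0 with RLE factors, 2 with library size scaling, 6 with DESeq2, 0 with limma-voom, 6 without a filter, 2 with the filter of CPM 1 in 2 libraries, 3 with sex as a covariate and 0 to 5 when 1 library was left out. Over all genes the share called, 3.61% as reported, was 2.93% with RLE factors, 5.32% with library size scaling, 13% with DESeq2 and 3.92% with limma-voom. It was 6.71% without a filter, 5.68% with the filter of CPM 1 in 2 libraries and 9.48% with sex as a covariate. The cause of these shifts was not tested. Library size scaling moved the median log2 fold change of all genes from -0.01 to 0.15, that of the members from 0.14 to 0.31, and the share of higher calls among all genes from 47.5% to 76.5%.

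Of the 61 members tested, 44 kept their sign in every alternative, and the other 17 had log2 fold changes of at most 0.36 in size. With a full set of libraries, Alkbh5 (-0.01) turned to 0.15 with library size scaling, 0.0082 without a filter and 0.015 without mitochondrial and the most abundant genes. Nsun5 (-0.01) turned to 0.0049 with RLE factors, 0.16 with library size scaling, 0.0048 with DESeq2, 0.019 without a filter and 0.023 without mitochondrial and the most abundant genes. Mettl15 turned to -0.0032 with sex as a covariate. When 1 library was left out, the ranges of log2 fold changes that crossed 0 were Alkbh5 -0.14 to 0.14, Emg1 -0.050 to 0.26, Mettl10 -0.14 to 0.27, Mettl15 -0.20 to 0.19, Mettl22 -0.10 to 0.45, Mettl24 -0.14 to 0.22, Mettl25 -0.28 to 0.67, Mettl7b -0.66 to 0.062, Nsun5 -0.10 to 0.088, Nsun6 -0.038 to 0.38, Rbm15b -0.038 to 0.23, Rnmt -0.044 to 0.39, Trmt112 -0.10 to 0.37, Trmt12 -0.35 to 0.023, Trmt13 -0.0038 to 0.43, Trmt2a -0.00088 to 0.21 and Zc3h13 -0.0053 to 0.093. With 2 libraries a group, 1 lone library is then assumed to vary like the others. All of these were uncalled members.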

Other observations

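Some related genes were looked at after their values had been seen, as values without explanation. Wybutosine, a bulky tricyclic base beside the anticodon of tRNA-Phe, is built in steps by Trmt5, Tyw1, Trmt12 (Tyw2), Tyw3 and Lcmt2 (Tyw4), with Tyw5 adding a hydroxyl group. By edgeR, 1 of these 6 rose (Lcmt2) and 0 fell, where 1.72% of all genes rose and 1.9% fell. At an unadjusted p under 0.05, 3 were higher and 0 lower, where 14.8% of all genes were higher and 15.7% lower. The log2 fold changes of the steps that add a methyl group were 1.03 for Trmt5, 1.14 for Tyw3 and 1.51 for Lcmt2. Those of the other steps were 0.20 for Tyw1, -0.18 for Trmt12 and -0.09 for Tyw5. This division by step was also made with the values known, so it is no evidence of a pattern. Tyw3 was not called (edgeR adjusted p = 0.103) and had only 23 and 33 counts in WT.

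The cap enzymes also spread in both directions. Cmtr2 was at 1.33 and called, Pcif1 at 0.18, Rnmt at 0.14 and Cmtr1, which methylates the nucleotide next to the cap, at -0.14. Ramac, the activator of Rnmt, was at 38.7 and 38.1 CPM in WT and 27.2 and 29.5 CPM in KO (edgeR adjusted p = 0.0724). Of 16 genes that modify mitochondrial RNA or help build its ribosome, 11 had a positive log2 fold change and 5 a negative one, with 0 called by edgeR and 3 higher and 3 lower at an unadjusted p under 0.05 (14.8% and 15.7% of all genes). The most positive was Mrm3, an rRNA ribose methyltransferase, with 2.36 and 1.68 CPM in WT and 4.35 and 4.91 CPM in KO (edgeR adjusted p = 0.0788), and the most negative Mettl8 (-1.03).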
